A study of Drosophila melanogaster with 13 samples.

Results

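Short neuropeptide F and its receptor are described here through their 2 genes, sNPF and sNPF-R, out of 17737 genes in the count table. Both were taken by their symbols, whatever their levels. RNA was read in 13 libraries made from brain neurons of the fruit fly Drosophila melanogaster that carried GFP and were picked by hand into a glass pipette. The TRH-Gal4 group is 4 pools of neurons labelled through a driver named for tryptophan hydroxylase, the serotonin enzyme. The sNPFR-Gal4 group is 1 pool and 8 single neurons labelled through a driver named for sNPF-R itself. GFP under a Gal4 driver is shared by all 13 libraries, and the labels give no age, sex or unlabelled control. A pool held 15 to 60 cells, and each pool or cell is called by the number in its label. The labels speak of protease digestion, and of acute dissociation for the brains of TRH-Gal4 flies where those of sNPFR-Gal4 flies were pinned, so handling and driver cannot be told apart. In a pool, fewer cells of a kind and less RNA per cell cannot be told apart either.

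Short neuropeptide F is a family of small amidated peptides ending in an RLRF or RLRW sequence, cut from a single precursor made by sNPF. The peptides act on sNPF-R, a receptor that signals through G proteins and is related to the vertebrate neuropeptide Y receptors. In the fly brain the peptide is known for promoting feeding and shaping sleep and odour responses, and mushroom body Kenyon cells make much of it. In fly larvae, sNPF-R in insulin-producing cells is known to act through MAP kinase on insulin-like peptide genes. The similarly named neuropeptide F (NPF) and its receptor NPFR are a separate pair.

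Levels are given as CPM, a gene's reads scaled to the total of its library. That total ran from 8.72 to 15.6 M reads in the TRH pools, was 56.1 M in the sNPFR pool, and ran from 3.38 to 67.96 M in the single cells. Genes at 10 CPM or more numbered 5119 to 5686 in the TRH pools, 2798 in the sNPFR pool and 784 to 1896 in the cells. Serotonergic markers (Trh, SerT, Vmat, Ddc) summed to between 55955 and 92420 CPM in TRH libraries, against 572.0 CPM in the sNPFR pool and 1.56 to 4790 CPM in the cells. Only 1 of these 4 genes reached 10 CPM in the sNPFR pool, and only 1 did in any cell. The fitted log2 fold change, TRH over sNPFR, was 3.41 for Ddc, against 17.6 for SerT, 19.1 for Vmat and 19.4 for Trh. Cholinergic markers (ChAT, VAChT) summed to between 0.229 and 186.1 CPM in TRH libraries, against 2184 CPM in the sNPFR pool and 2141 to 4916 CPM in the cells. All 5 neuron markers reached 10 CPM in every TRH pool, while elav stood at 1.37 CPM in the sNPFR pool and under 10 CPM in cells 1, 4, 5 and 10, and brp at 4.84 CPM in cell 10. No animals are named in the labels, and single cells were therefore summed to 1 unit. With the sNPFR pool that made 2 units to set against the 4 TRH pools. P-values thus speak only to how these samples spread, which may be technical.

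The ligand gene was found in every TRH pool and in no sNPFR library. sNPF (FBgn0032840) lies on chromosome 2L at 20027915 to 20056373 on the plus strand (BDGP6). Its annotation joins 5 exons, of which 4 hold coding sequence, over 2447 exonic bases and 843 coding bases. No other gene overlaps it, apart from 2 transposable elements. It stood at 354.3, 273.8, 369.6 and 294.3 CPM in TRH pools 40, 45, 60 and 57. Its reads per kilobase of exon exceeded those of 92.6% to 95.0% of the genes with reads in these pools. It had 0 reads in the sNPFR pool and likewise in all 8 cells, out of 185.2 M reads in those 9 libraries. All TRH pools therefore lay above all sNPFR libraries, with no overlap. Such separation of the 4 TRH pools above both sNPFR units was found in 27.3% of the 7426 genes tested.

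A count of 0 leaves room for 3 reads, or 0.0535 CPM in the sNPFR pool and 0.0441 to 0.887 CPM in the cells. Against that floor in the sNPFR pool, the mean of 323.0 ± 46.1 CPM in the TRH pools (SD, n = 4) was at least 6042-fold higher, counting error only. PCR copies are counted as reads in that floor. sNPF was called higher in TRH (edgeR's quasi-likelihood test, Benjamini-Hochberg adjusted p = 0.00504), as were 10.6% of all genes tested. With 0 reads in both sNPFR units, sNPF passed the filter for low counts through the TRH pools alone. Its direction was thus fixed, as was that of 1700 of the 7426 genes tested. The fitted log2 fold change of sNPF, 16.12, rests on the prior count and is no bound. The call was lost without TRH pool 57 (adjusted p = 0.0520, edgeR), where 16 genes in all were called, against 1009 with every pool. An exact permutation test on log2(CPM + 1) over the 6 units gave p = 0.133, two-sided, the smallest that 15 splits allow.

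The on or off pattern of sNPF was shared by other genes of the TRH pools. Of 3907 genes at 10 CPM or more in all 4 TRH pools, 334 (8.55%) had 0 reads in all 9 sNPFR libraries, sNPF among them. The 5 genes most like sNPF over the 13 libraries, by Pearson's r of log2(CPM + 1), were CG4199, beat-Ib, GAPsec, Pkn and Alg2, each with r above 0.99. In all, 355 of 5418 compared genes exceeded 0.99, so the order among them carries little. Each of these 5 had 0 reads in all sNPFR libraries. beat-Ib belongs to the beaten path family of cell surface proteins, and Pkn is a protein kinase.

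**Figure D1:**
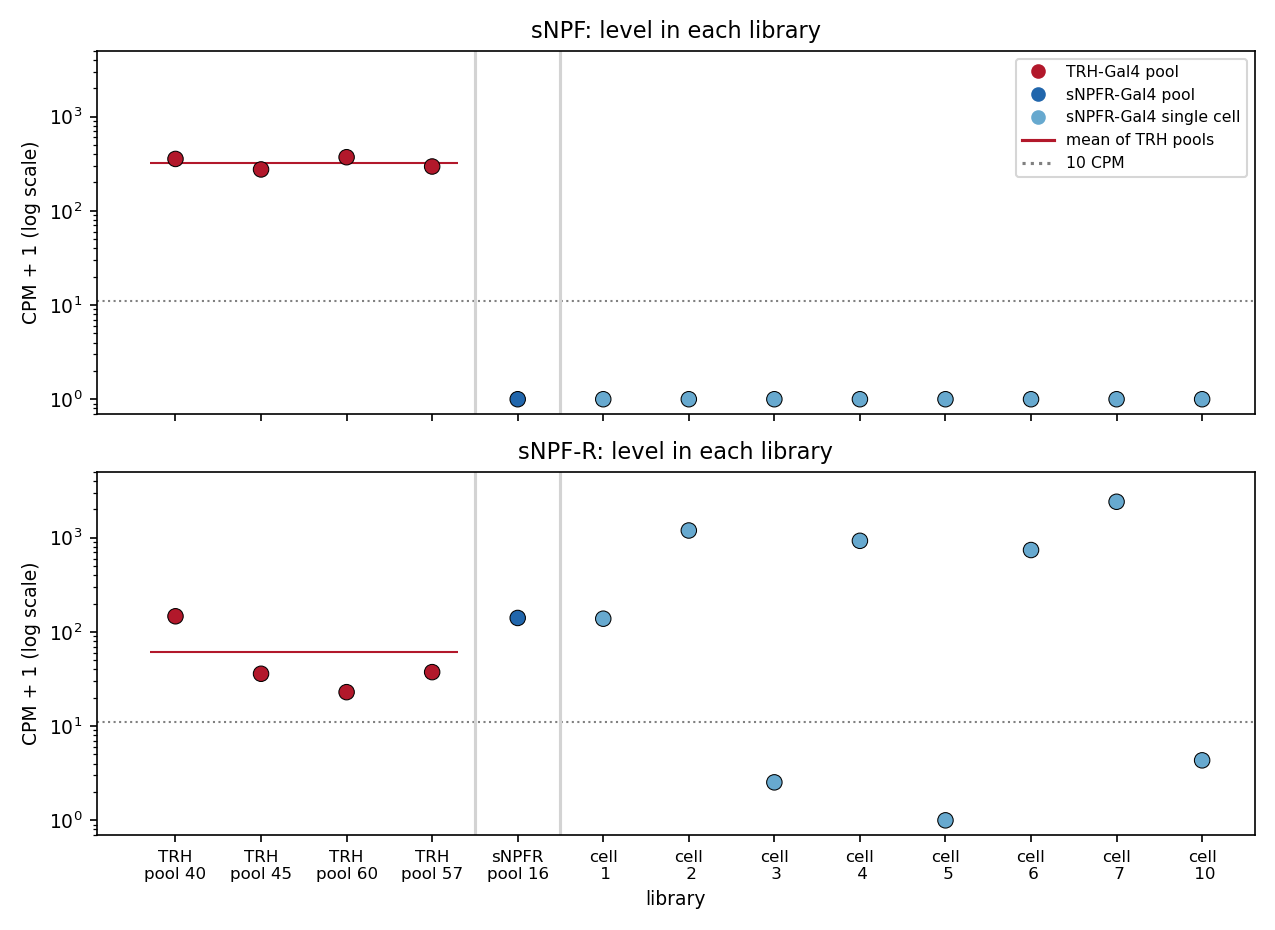
Level of sNPF (top) and sNPF-R (bottom) in each of the 13 libraries as CPM + 1 on a log axis, with each point a library and the red line the mean of the 4 TRH pools. sNPF sits between 273.8 and 369.6 CPM in the TRH pools and at 0 in all 9 sNPFR libraries, while sNPF-R is spread from 0 to 2406 CPM over the 8 cells.

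The receptor gene was present in both groups, and its highest levels were in single sNPFR cells. sNPF-R (FBgn0036934) lies on chromosome 3L at 20058511 to 20089007 on the minus strand (BDGP6). Its 3 merged exons cover 4746 bases, and the 1800 coding bases all lie in exon 2. No annotated gene overlaps it. It stood at 145.6, 35.0, 21.9 and 36.4 CPM in TRH pools 40, 45, 60 and 57. It stood at 139.7 CPM in the sNPFR pool, from 7838 reads (exact Clopper-Pearson 95% interval 136.6 to 142.8 CPM). The interval of TRH pool 40, 137.7 to 153.8 CPM, overlapped that of the sNPFR pool. The other 3 TRH pools lay below the sNPFR pool, and pools 45 and 57 had overlapping intervals.

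The 8 cells fell far apart for the gene that names their driver. Cell 7 stood at 2406 CPM, cell 2 at 1192 CPM, cell 4 at 925.9 CPM, cell 6 at 739.1 CPM and cell 1 at 137.1 CPM. The interval of cell 1, 129.6 to 145.0 CPM, overlapped those of TRH pool 40 and the sNPFR pool. Cell 10 held 64 reads, or 3.33 CPM (exact 95% interval 2.57 to 4.26 CPM). Cell 3 held 7 reads, or 1.53 CPM (exact 95% interval 0.615 to 3.15 CPM). Cell 5 held 0 of 9.27 M reads, which allows up to 0.324 CPM. At a threshold of 10 CPM, 5 of 8 cells had the receptor, and no cell lay between 3.33 and 137.1 CPM. Cells 3, 5 and 10 thus carried the driver's label with sNPF-R under that threshold. The intervals of these levels cover counting error only.

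Order within the cells did not follow depth throughout, though cell 7 had both the deepest library and the highest level. Cell 4, with the fewest reads of all at 3.38 M, had the third highest level of sNPF-R, and cell 10, second in depth at 19.2 M, was sixth. Cell 7 supplied 89.3% of the receptor reads of the cells and 52.7% of all their reads. Intervals of neighbours in this order did not overlap among cells 7, 2, 4, 6 and 1, while those of cells 10 and 3 did. Ranked by reads per kilobase, sNPF-R stood above 98.0% of the genes with reads in cell 7, above 78.2% in cell 2, 77.2% in cell 4, 67.3% in cell 6 and 41.6% in cell 1. It stood above 20.7% to 63.3% of such genes in the TRH pools and above 52.2% in the sNPFR pool. In cell 10 its 64 reads stood above 73.2% of genes with reads, in a library where 4823 genes had reads and 966 reached 10 CPM.

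Over the 6 units, sNPF-R was called higher in sNPFR. The TRH pools averaged 59.7 ± 57.6 CPM (SD, n = 4), against 139.7 CPM in the sNPFR pool, with 1419 CPM in the sum of cells. The log2 fold change, TRH minus sNPFR, was -4.44 ± 1.10 (adjusted p = 0.0422, edgeR). The error after ± was worked back from the F statistic of that test, as the size of the change over the square root of F. Genes called higher in sNPFR were 3.03% of the 7426 tested, and the median log2 fold change of all of them was 0.67. The groups overlapped, and 8.11% of genes had all TRH pools below both sNPFR units. The exact permutation p over the 6 units was 0.267, two-sided.

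That call rested on few libraries. Without cell 7 the sum of cells stood at 320.3 CPM and the log2 fold change was -2.51 (adjusted p = 0.117, edgeR). With each cell weighted equally it was -2.91 (adjusted p = 0.103, edgeR), and with the sNPFR pool alone -1.58 (adjusted p = 0.249, edgeR). It was also lost without TRH pool 45, 57 or 60 (adjusted p = 0.111, 0.125 and 0.1001, edgeR), where 16 to 39 genes in all were called. Under other scalings of the libraries it was -3.97 with RLE factors (adjusted p = 0.0548, edgeR) and -3.71 with library totals only (adjusted p = 0.0650, edgeR). In the authors' deposited normalized table, which scales each library by its own constant, sNPF-R stood at 4511 in cell 7 and 185.9 in the sNPFR pool, against CPM of 2406 and 139.7.

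Within the TRH pools the ligand and the receptor differed in how even they were. sNPF varied 1.35-fold between the lowest and the highest pool, with a coefficient of variation (SD over mean) of 14.3%. sNPF-R varied 6.63-fold with a coefficient of 96.4%, and without pool 40 it varied 1.66-fold with a coefficient of 25.6%. Leaving out each pool in turn, a choice made after seeing the data, gave coefficients of 11.7% to 16.1% for sNPF. Among 1906 genes averaging 100 CPM or more in these pools, the median coefficient was 29.1%, and 11.4% of genes were more even than sNPF. Of 49 listed neuropeptide genes, 9 averaged 100 CPM or more in the TRH pools, and sNPF was the most even of the 9. The next were Proc, the proctolin gene, at 45.4% and Nplp1 at 56.0%, and the least even was Dh31, a diuretic hormone gene, at 196.2%. These peptide genes were named after their values were seen.

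**Figure D2:**
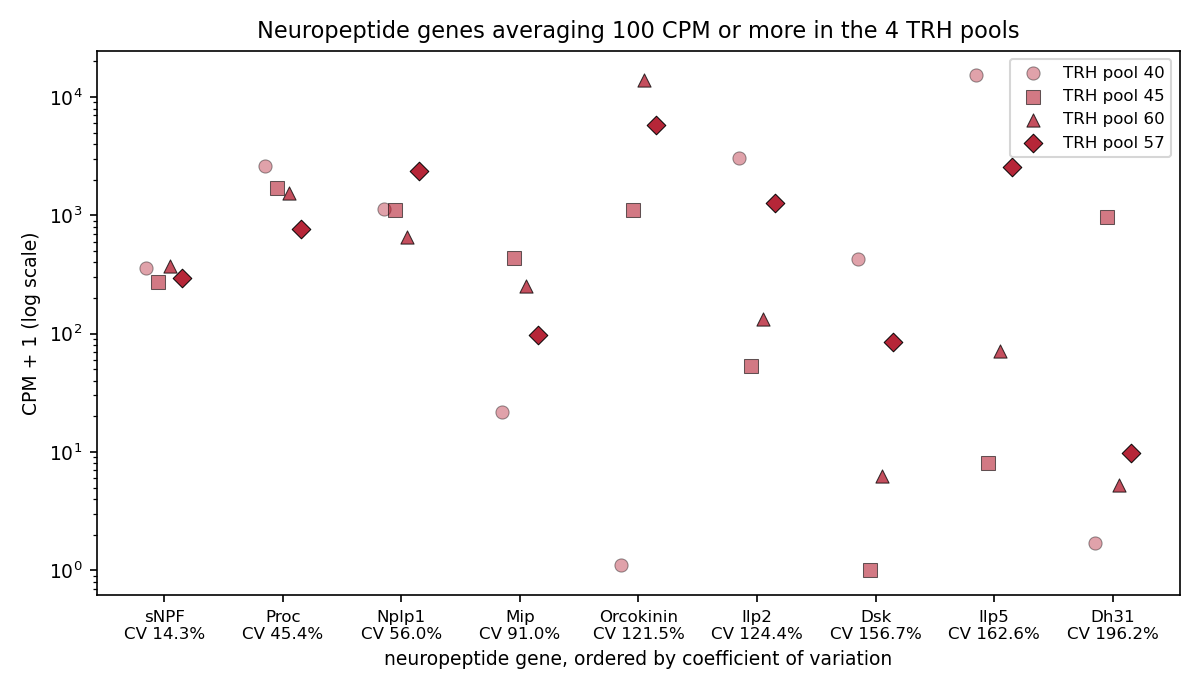
Level of the 9 neuropeptide genes that averaged 100 CPM or more in the TRH pools, as CPM + 1 on a log axis, with 1 point per pool and genes ordered by coefficient of variation (CV). The 4 points of sNPF lie within 1.35-fold of each other, while Dh31 has a CV of 196.2%.

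Per kilobase of exon, the ligand gene stood above the receptor gene in all 4 TRH pools. sNPF was 4.72, 15.2, 32.7 and 15.7 times sNPF-R in pools 40, 45, 60 and 57. The lowest ratio, in pool 40, came with the highest receptor level of the 4 pools. Per kilobase of coding sequence the ratios ran from 5.20 to 36.0. Both genes were thus found in each TRH pool, and no sNPFR library held reads of both. Whether a single TRH neuron held both was not measured, as only pools were made.

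Markers of other cell types that use this system were read beside the members. The insulin-like peptide genes Ilp2, Ilp3 and Ilp5 mark the brain's insulin-producing cells. Ilp5 stood at 15214, 7.08, 70.7 and 2574 CPM in TRH pools 40, 45, 60 and 57, against 0 reads in the sNPFR pool, with 1 read in the cells. Ilp2 stood at 3076, 52.2, 132.2 and 1273 CPM in the same pools, and Ilp3 at 155.2, 0, 0 and 10.9 CPM. Pool 40 was highest for all 3 and for sNPF-R. Pool 57, second for all 3 insulin-like genes, stood at 36.4 CPM for sNPF-R, close to the 35.0 CPM of pool 45. The part of insulin-producing cells in the receptor level of pool 40 was not tested.

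All 6 Kenyon cell markers reached 10 CPM in every TRH pool, and they summed to 619.5 to 1256 CPM there. The same list summed to 1152 CPM in the sNPFR pool and 463.4 to 4653 CPM in the cells. Of that, mub gave 1063 CPM in the sNPFR pool and 414.7 to 4634 CPM in the cells, while ey, toy and prt had 0 reads in all sNPFR libraries. The list had 2 genes at 10 CPM in the sNPFR pool and 3 in at least 1 cell. Its other genes, dac (log2 fold change -3.26, adjusted p = 0.0773, edgeR) and rut (3.05, adjusted p = 0.182, edgeR), did not pass. rut stood at 0.713 CPM in the sNPFR pool. toy, an eye-selector transcription factor gene, stood at 143.2, 121.1, 86.8 and 86.2 CPM in TRH pools 40, 45, 60 and 57. Pool 45, highest of the 4 for ey at 129.7 CPM, was lowest for sNPF at 273.8 CPM. Pool 40, highest for toy, stood at 354.3 CPM for sNPF, and pool 60 was highest for sNPF at 369.6 CPM. Glia markers summed to 83.4 to 552.3 CPM in the TRH pools, against 1589 CPM in the sNPFR pool and 0 to 129.8 CPM in the cells. In the sNPFR pool that sum came from Eaat1 at 1105 CPM, alrm at 323.2 CPM and Gs2 at 160.8 CPM. The glial gene repo stood at 3.24 CPM in TRH pool 60 and had 0 reads in the other 3 TRH pools and in the sNPFR pool. The part of any of these in the members' levels was not tested.

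Of the 7 listed genes for NPY-like and RFamide peptides, sNPF alone reached 10 CPM in all 4 TRH pools, and none reached it in an sNPFR library. FMRFa, the FMRFamide precursor, stood at 0, 21.6, 28.2 and 12.0 CPM in TRH pools 40, 45, 60 and 57. Dsk, the drosulfakinin precursor, stood at 428.1, 0, 5.22 and 84.3 CPM. Both had 0 reads in the sNPFR units and did not pass (adjusted p = 0.108 and 0.107, edgeR). NPF, SIFa and RYa, genes of other peptides of this kind, had 0 reads in all 13 libraries, and Ms, the myosuppressin gene, reached 2.51 CPM at most. Of the 4 genes of this list that could be tested, 1 was called, sNPF, beside 13.6% of all genes in either direction. Their median log2 fold change was 13.25, or 9.71 with the 3 genes at 0 in both sNPFR units set to their floor of 3 reads in the sNPFR pool, against 0.67 over all genes on either scale. Those 3 genes passed the filter for low counts through the TRH pools alone and could only come out higher in TRH. The medians are therefore no test of the list.

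**Figure D3:**
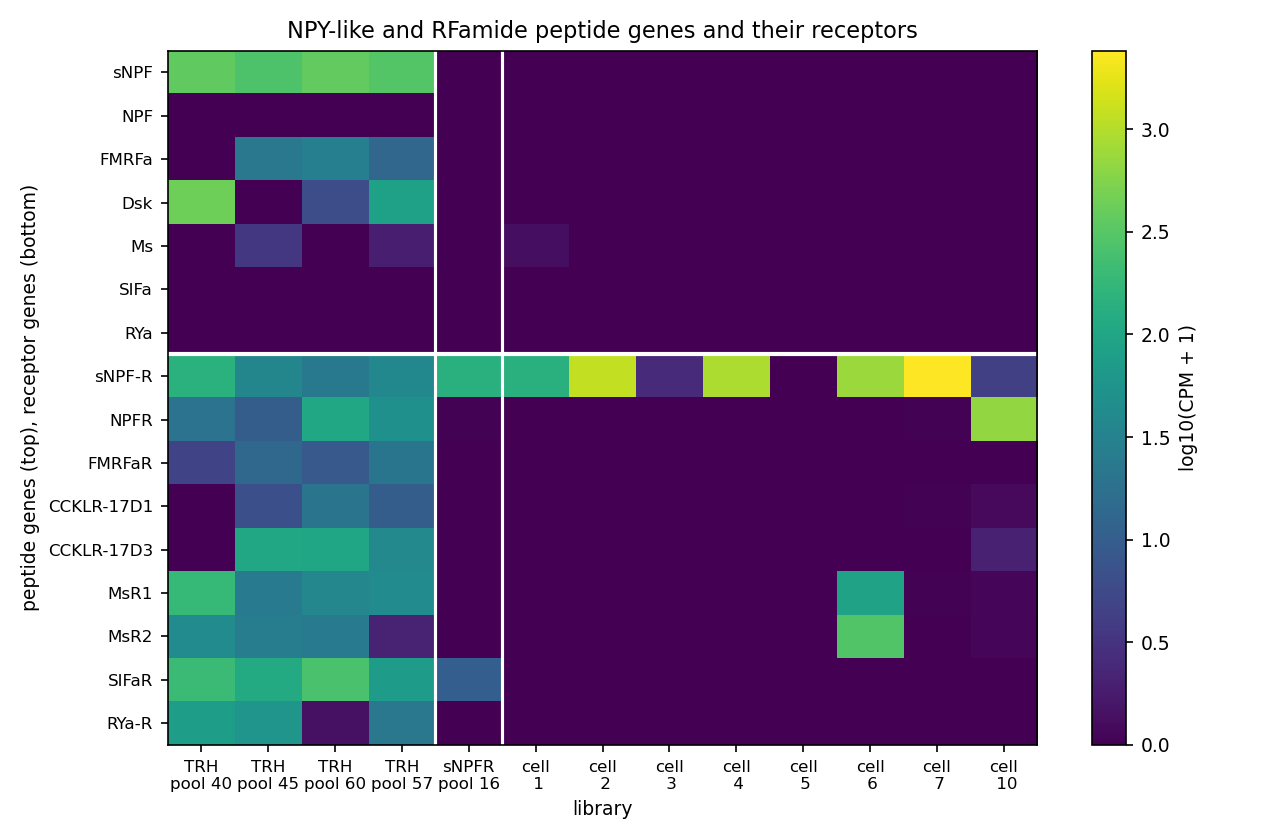
Level of 7 NPY-like and RFamide peptide genes (above the white line) and 9 of their receptor genes (below it) in each library, as log10(CPM + 1), with brighter cells for higher levels. sNPF is bright only in the 4 TRH columns, sNPF-R is brightest in cell 7 at 2406 CPM, and NPFR is bright in cell 10 at 672.5 CPM.

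The receptors of these peptides showed a mosaic over the single cells. NPFR, the receptor of neuropeptide F, stood at 672.5 CPM in cell 10, where sNPF-R was at 3.33 CPM, and at 0.0441 CPM at most in the other 7 cells. In TRH pools 40, 45, 60 and 57 NPFR stood at 18.2, 8.91, 101.9 and 48.2 CPM, and it did not pass (log2 fold change -0.93, adjusted p = 0.792, edgeR). The myosuppressin receptor genes MsR1 and MsR2 stood at 88.0 and 288.1 CPM in cell 6, beside its 739.1 CPM of sNPF-R. In every other cell they stood at 0.156 and 0.104 CPM at most. SIFaR, the SIFamide receptor, stood at 201.6, 117.0, 257.8 and 70.1 CPM in TRH pools 40, 45, 60 and 57, against 9.32 CPM in the sNPFR pool, with 0 reads in the cells (adjusted p = 0.208, edgeR).

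The RYamide receptor RYa-R ran from 0.418 to 75.1 CPM over the TRH pools and had 0 reads in sNPFR (adjusted p = 0.0565, edgeR). The sulfakinin receptors CCKLR-17D1 and CCKLR-17D3 reached 18.7 and 105.8 CPM in TRH pools and did not pass (adjusted p = 0.182 and 0.155, edgeR). FMRFaR, the FMRFamide receptor, averaged 11.1 ± 6.90 CPM in the TRH pools (SD, n = 4), against 0 reads in sNPFR, and was called higher in TRH (adjusted p = 0.0486, edgeR). That call was lost without pool 45, 57 or 60, up to an adjusted p of 0.0981. Of these 9 receptor genes, 1 was called higher in TRH, sNPF-R alone was called higher in sNPFR, and 7 did not pass. Over all genes tested, 10.6% were called higher in TRH and 3.03% higher in sNPFR. The median log2 fold change of the 9 was 4.79, against 0.67 over all genes. FMRFaR and RYa-R, at 0 reads in sNPFR, passed the filter for low counts through the TRH pools alone, so their direction was fixed.

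Among 39 listed neuropeptide receptor genes, sNPF-R held a small place in the TRH pools and a large one in most sNPFR libraries. In TRH pools 40, 45, 60 and 57 it took 4.18%, 1.36%, 0.781% and 1.31% of the reads per kilobase of exon summed over these receptors, ranking eighth, 22nd, 25th and 22nd. In the sNPFR pool it took 43.6%, second to CNMaR, the CNMamide receptor, at 52.0%. In the cells it took 98.8% in cell 7, 96.6% in cell 4, 60.7% in cell 2, 34.1% in cell 6 and 29.8% in cell 1. It took 0.267% in cell 3, 0.243% in cell 10 and nothing in cell 5. It ranked first in cells 2, 4 and 7 and second in cells 1 and 6. In the sum of cells it ranked first, and second without cell 7. The TRH pools had 24 to 28 of these receptors at 10 CPM or more, the sNPFR pool had 2 and the sNPFR cells had 2 to 5. Of all 17737 genes, 5119 to 5686 reached that level in the TRH pools, 2798 in the sNPFR pool and 784 to 1896 in the cells. The sNPFR pool, like the TRH pools, was a mixture of cells.

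**Figure D4:**
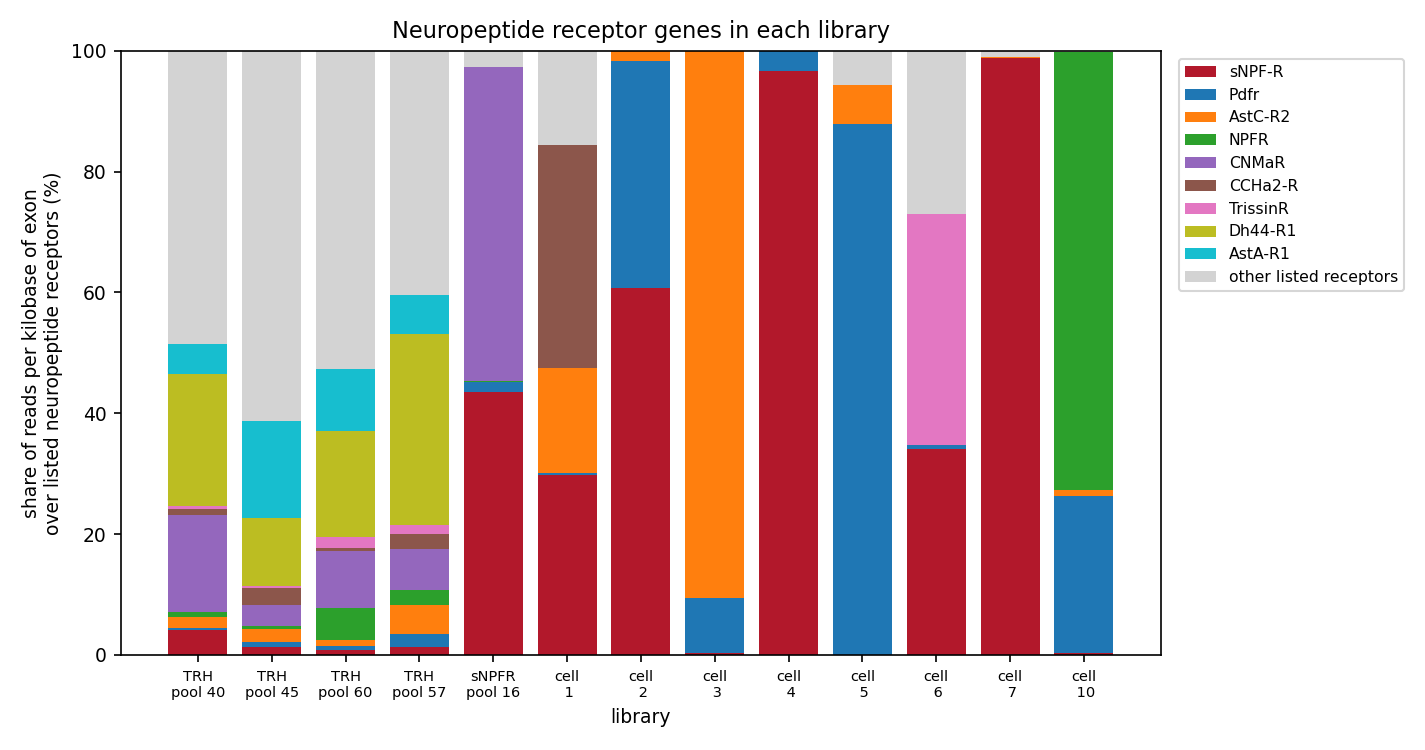
Share of each neuropeptide receptor gene in the reads per kilobase of exon summed over 39 listed receptors, in percent, with 1 stacked bar per library and grey for receptors not named. sNPF-R (dark red) takes 0.781% to 4.18% in the TRH pools, 43.6% in the sNPFR pool and 98.8% in cell 7.

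The cells with little or no sNPF-R had other receptors in front. Pdfr, the receptor of the clock peptide PDF, led in cell 5 at 881.2 CPM. AstC-R2, an allatostatin C receptor, led in cell 3 at 407.7 CPM, and NPFR led in cell 10. Of the 39 receptors, 3 stood at 10 CPM or more in 5 cells or more: Pdfr in 6, sNPF-R and AstC-R2 in 5 each. Among all genes of the series, 4.23% did so. CNMaR, Pdfr and AstC-R2 were named after their values were seen.

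Of the 35 receptors that could be tested, 11 were called higher in TRH, 1, sNPF-R, was called higher in sNPFR, and 23 did not pass. That is 34.3% called, beside 13.6% of all genes. Their median log2 fold change was 8.95, or 7.58 with the 13 receptors at 0 in both sNPFR units set to their floor, against 0.67 over all genes. Those 13 passed the filter for low counts through the TRH pools alone, as did 1700 of all 7426 genes tested. They could only come out higher in TRH, so the share called and the median are descriptions, not a test of receptors. Dh44-R1, a diuretic hormone receptor, averaged 315.0 ± 138.0 CPM in the TRH pools (SD, n = 4), against 0 reads in sNPFR (adjusted p = 0.00705, edgeR). That call was lost without pool 57 (adjusted p = 0.0681, edgeR). Calls for AstA-R1, CCHa1-R and PK2-R2, receptors of allatostatin A, CCHamide and pyrokinin, were lost without pool 45, 57 or 60 (adjusted p up to 0.0825, edgeR).

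Genes for cutting, amidating and releasing peptides were found on both sides, though not in every single cell. IA-2 reached 10 CPM in 8 of 8 cells, 7B2 and Cadps in 7 and Pal2 in 6. The genes amon, svr and Phm did so in 4 cells each and Pal1 in 2. Of 11 listed genes, 10 were tested: 1 was called higher in TRH, 1 was called higher in sNPFR and 8 were not called. That is 20% called, beside 13.6% of all genes, and the median log2 fold change of the 10 was 0.99, against 0.67 over all genes. IA-2, a dense-core vesicle protein gene, averaged 18024 ± 3088 CPM in the TRH pools (SD, n = 4), against 4421 CPM in the sNPFR pool, with 6292 CPM in the sum of cells (adjusted p = 0.0394, edgeR). Cadps, needed for dense-core vesicle release, averaged 356.6 ± 87.6 CPM in the TRH pools (SD, n = 4), against 562.1 CPM in the sNPFR pool, with 958.6 CPM in the sum of cells (adjusted p = 0.0482, edgeR). Both calls were lost whichever TRH pool was left out (adjusted p up to 0.0825 for IA-2 and 0.124 for Cadps, edgeR). That of IA-2 was also lost without cell 1, 2, 3, 5 or 6 (adjusted p up to 0.0841, edgeR), and that of Cadps with RLE factors or library totals only (adjusted p up to 0.122, edgeR). svr, a carboxypeptidase gene, and 7B2, a helper of the convertase amon, averaged 1556 and 2372 CPM in the TRH pools and did not pass (adjusted p = 0.0670 and 0.0711, edgeR). Both passed with RLE factors (adjusted p = 0.0257 and 0.0221, edgeR) and with library totals only (adjusted p = 0.0199 and 0.0177, edgeR). Neither passed with TMM with singleton pairing (adjusted p = 0.0605 and 0.0968, edgeR).

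**Figure D5:**
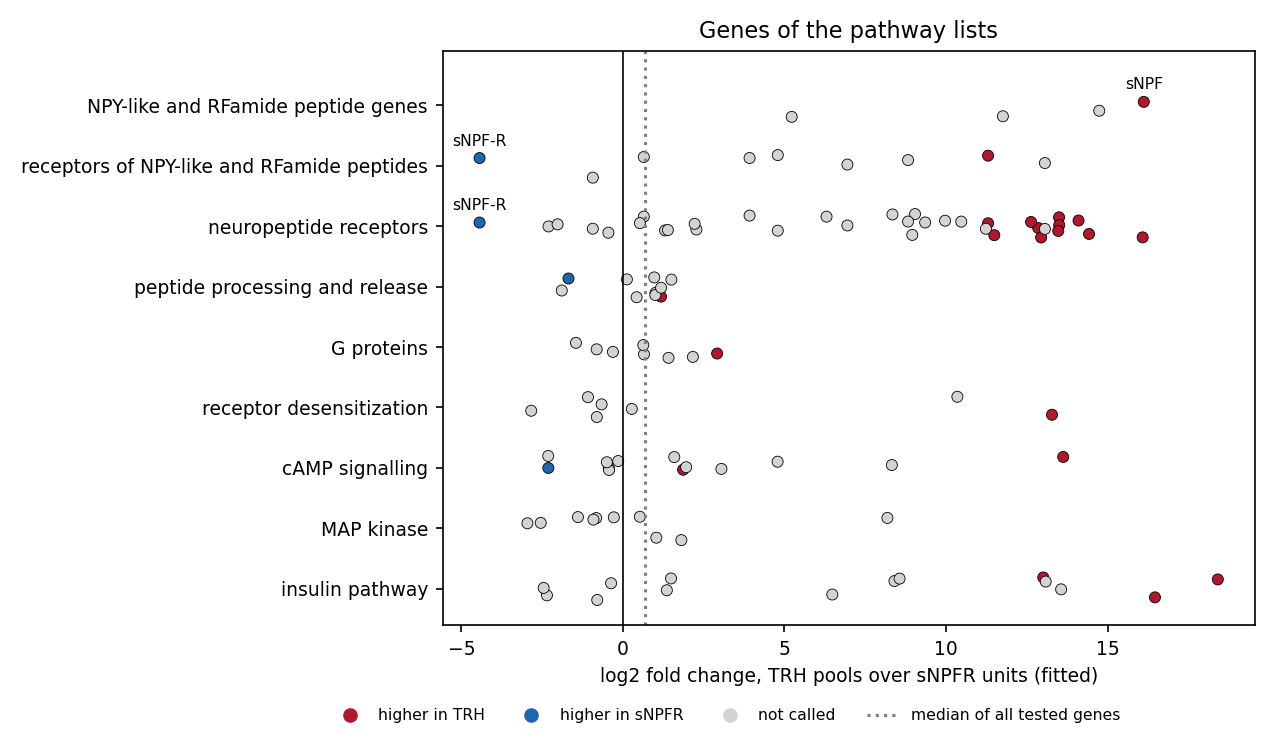
Fitted log2 fold change, TRH pools over sNPFR units, for the tested genes of 9 lists, with 1 point per gene, red for genes called higher in TRH, blue for genes called higher in sNPFR and grey for genes not called. sNPF lies at 16.12 and sNPF-R at -4.44, and the dotted line is the median of all tested genes, 0.67.

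Downstream genes gave few calls in number. The share called was 12.5% of G protein genes, 14.3% of receptor desensitization genes, 23.1% of cAMP signalling genes, 21.4% of insulin pathway genes and 0% of MAP kinase genes, against 13.6% of all genes in either direction. Both sNPFR units had 0 reads for 2 of 7 tested desensitization genes, 3 of 14 insulin pathway genes and 1700 of all 7426 genes. Such genes could only come out higher in TRH, so these shares are descriptions. Of 8 tested G protein subunit genes, 1 was called. Ggamma30A, a gamma subunit gene, averaged 6209 ± 2411 CPM in the TRH pools (SD, n = 4), against 524.3 CPM in the sNPFR pool, with 588.9 CPM in the sum of cells (adjusted p = 0.0193, edgeR). Galphao, the main neuronal Go alpha subunit, averaged 1983 CPM in the TRH pools, against 406.7 CPM in the sNPFR pool, with 611.0 CPM in the sum of cells, and did not pass (adjusted p = 0.0857, edgeR). Galphao ranged over the cells from 24.3 CPM in cell 10 to 2287 CPM in cell 2. The beta subunit gene Gbeta13F and the gamma subunit gene Ggamma1 did not pass (adjusted p = 0.162 and 0.127, edgeR). Galphao and Gbeta13F passed with RLE factors (adjusted p = 0.0308 and 0.0432, edgeR) and with library totals only (adjusted p = 0.0205 and 0.0231, edgeR). With TMM with singleton pairing neither passed, while Ggamma1 did (adjusted p = 0.0380, edgeR). Galphai, the other inhibitory alpha subunit gene, stood at 0.104 CPM in TRH pool 60 and had 0 reads elsewhere.

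Of 7 tested genes of receptor desensitization, krz, the non-visual arrestin, was called higher in TRH, at 44.6 ± 25.3 CPM in the TRH pools (SD, n = 4), against 0 reads in sNPFR (adjusted p = 0.0235, edgeR). Among the others, loco, Axn and Gprk1 did not pass (adjusted p = 0.0677, 0.0936 and 0.189, edgeR). krz and loco, both at 0 reads in sNPFR, passed the filter for low counts through the TRH pools alone, so their direction was fixed. Of 13 tested cAMP signalling genes, 2 were called higher in TRH and 1 was called higher in sNPFR, and the median log2 fold change was 1.59. Pka-C3, a kinase catalytic subunit gene, averaged 151.5 CPM in the TRH pools, against 1 read in sNPFR (adjusted p = 0.0160, edgeR). Pka-R1, a regulatory subunit gene, averaged 694.3 CPM in the TRH pools, against 183.8 CPM in the sNPFR pool, with 96.6 CPM in the sum of cells (adjusted p = 0.0344, edgeR). Epac, a cAMP-activated exchange factor gene, averaged 360.8 CPM in the TRH pools, against 1565 CPM in the sNPFR pool, with 1002 CPM in the sum of cells (log2 fold change -2.31 ± 0.33, adjusted p = 0.0175, edgeR). Ac78C, an adenylate cyclase gene, did not pass (adjusted p = 0.0519, edgeR), though it did under each other scaling (adjusted p up to 0.0493, edgeR).

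Of 10 tested MAP kinase pathway genes, 0 were called by edgeR, and 2 had an unadjusted p under 0.05, as had 33.3% of all genes. DESeq2 called 3 of the 10 (40.9% of all genes), limma-voom 1 (15.1% of all genes) and limma on log2(CPM + 1) 2 (16.3% of all genes). ksr, a scaffold gene, and drk, an adaptor gene, came nearest in edgeR (adjusted p = 0.0587 and 0.0731), followed by csw and Raf (adjusted p = 0.171 and 0.256). With TMM with singleton pairing ksr passed (adjusted p = 0.0370, edgeR). Of 14 tested insulin pathway genes, Ilp2, Ilp5 and Thor, the translation repressor 4E-BP, were called higher in TRH (adjusted p = 0.0222, 0.0470 and 0.0235, edgeR). Ilp3 and Pi3K92E did not pass (adjusted p = 0.161 and 0.0807, edgeR). Thor and Ilp3, both at 0 reads in sNPFR, passed the filter for low counts through the TRH pools alone, so their direction was fixed. Irk1, the single inward rectifier channel gene tested of 3, did not pass (adjusted p = 0.309, edgeR).

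Each call named among these downstream genes was lost without TRH pool 57 and without pool 60 (adjusted p up to 0.0973, edgeR). All but that of Ggamma30A were lost without pool 45 as well. The call of Ilp5 was also lost without pool 40 or cell 4, and that of Pka-R1 without cell 7 or 10 and with TMM with singleton pairing (adjusted p = 0.0714, edgeR).

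The genes whose levels followed sNPF-R most closely over the 13 libraries gave lower coefficients than for sNPF. Abl, a tyrosine kinase gene, had r = 0.84, ct, a homeodomain transcription factor gene, 0.84, Hsc70-4, a chaperone gene, 0.80, CG1513 0.80 and heph, an RNA-binding protein gene, 0.80. The median over 5418 genes was -0.07 and no gene passed 0.9. The points share library depth, number of cells and amplification, so these are descriptions. ct stood at 139.0, 84.4, 79.1 and 52.6 CPM in TRH pools 40, 45, 60 and 57 and at 987.3 CPM in the sNPFR pool. In the cells ct was at 653.9 CPM in cell 7 and at 0, 12.1 and 9.38 CPM in cells 3, 5 and 10, the cells low in sNPF-R. Cells 3, 5 and 10 were also lowest for Abl, at 2.19, 0.108 and 0.417 CPM, against 185.0 to 1753 CPM in the other cells. The same cells were lowest for CG1513, heph and the chaperone gene Hsc70-4, the last at 712.4, 544.9 and 1358 CPM. All these genes were picked by their likeness to sNPF-R over the same libraries. Low levels in the cells low in sNPF-R thus follow from that choice and are no separate result.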

How the data were processed

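The authors' deposited counts are whole numbers of reads for each gene and library. The aligner STAR, edgeR and build BDGP6 are listed per the submitters' processing notes. Versions, counting tool and strandedness are not stated in the sources. The authors' deposited normalized table was read as signal: every library equals the counts multiplied by a single constant, with 100% of values whole at a relative tolerance of 0.001. 1 further column of per-sample values in the count table, whose name follows the pattern of the single sNPFR cells but fits none of the 13 labels, was not used, so counts of cells leave it out. CPM are counts over library totals, and reads per kilobase used Ensembl release 115 exons. IDs matched the reference names for 17599 genes. Per the labels' protocols, cDNA had 12 PCR cycles for pools and 17 for cells. Copies were not collapsed by molecular identifiers.

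TRH pools (4) and sNPFR units (2) were compared by the quasi-likelihood test of edgeR 4.0.16 in R 4.3.3 with TMM, filterByExpr, a threshold of 0.05 and 4 residual degrees of freedom, checked on simulated counts. Alternatives used DESeq2 1.42.0 and limma 3.58.1, other scalings, filters, units and left-out libraries. Python 3.11.15 with numpy 2.4.6, pandas 2.3.3, scipy 1.17.1 and matplotlib 3.10.9 was used. Members and lists were chosen with earlier results of these data known. Named genes were the members, peptide and receptor relatives at 10 CPM or more, up to 4 genes per other list by smallest p, Ilp2, Ilp3, Ilp5, markers beside the members, and the 5 most correlated with each member. Pseudocounts were 1 CPM.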

Additional observations from a re-analysis of the deposited data

Results flagged for a closer look

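In 11 of 30 groups of a gene's samples (15 genes, in the TRH pools and in the sNPFR cells), 1 sample lay far from the rest by Dixon's criterion. Its nominal rate of about 1 group in 20 is for normally distributed values. CPM are skewed and often 0 in the cells, and a gene with reads in a single cell is always flagged. The count of flags is therefore not a measure of excess over chance. Among the TRH pools it was pool 40 each time: for sNPF-R at 145.6 CPM (next 36.4), for MsR1 at 180.7 CPM (next 41.5), for Ilp5 at 15214 CPM (next 2574) and for Ilp3 at 155.2 CPM (next 10.9). Among the cells, NPFR stood at 672.5 CPM in cell 10, and MsR1 at 88.0 CPM and MsR2 at 288.1 CPM in cell 6, with every other cell under 0.2 CPM. The remaining ones rest on few reads: CCKLR-17D3 at 1.04 CPM (20 reads) and CCKLR-17D1 at 0.208 CPM (4 reads) in cell 10, Ilp2 at 0.111 CPM (1 read) in cell 1 and Ilp5 at 0.296 CPM (1 read) in cell 4.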

How the results depend on the processing

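sNPF kept its direction under all 25 alternatives and its call under 24, with log2 fold changes from 8.33 to 17.0, and from 15.7 to 16.4 with single libraries left out. That direction was fixed in advance, as sNPF had 0 reads in every sNPFR library. sNPF-R kept its direction under all 25 and its call under 14. It lost it with RLE factors (-3.97, adjusted p = 0.0548), library totals only (-3.71), limma-voom (-4.75, adjusted p = 0.733), limma on log2(CPM + 1) (-3.28) or log2(CPM + 0.5) (-3.29), the sNPFR pool alone (-1.58) and cells weighted equally (-2.91). With single libraries left out it ran from -5.28 to -2.51, lost in 4 of 12. The 1009 genes called became 3039 with DESeq2, 2745 with the sNPFR pool alone and 2027 with the cells alone, and 16 to 1226 with a library left out, the lowest being 16, 30 and 39 without TRH pools 57, 45 and 60. Scalings moved the median log2 fold change of all genes from 0.41 to 1.27, against 0.67, and calls higher in TRH were 784 of 1009, 809 of 1203 with singleton pairing and 848 of 965 with library totals only. The recovered reads, an alternative chosen after seeing the data, gave 1201 calls. sNPF-R ranked 1 to 2 among receptors with a cell left out. Of the 5 genes most like sNPF-R, 3 remained with a pseudocount of 0.1 or 10 CPM and 2 with Spearman's rho. The cause was not tested. No paired analysis was possible because the groups share no replicate numbers. The counts limit precision in cells 3, 5 and 10, where sNPF-R had 7, 0 and 64 reads.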

Other observations

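The sNPFR libraries held fewer genes at 10 CPM than the TRH pools, neuropeptide genes among them. Of all 17737 genes, 5119 to 5686 reached it in the TRH pools and 2798 in the sNPFR pool. In the cells 784 to 1896 did, with 1875 in cell 1. Of 49 listed neuropeptide genes, 12 to 16 reached 10 CPM in the TRH pools, 1 did in the sNPFR pool and 4 did in cell 1, while the other 7 cells had none. The one in the sNPFR pool was Dh31 at 158.2 CPM. Those in cell 1, where sNPF-R stood at 137.1 CPM, were amn, the amnesiac gene, at 210.1 CPM, Orcokinin at 73.2 CPM, Gpb5 at 17.9 CPM and Trissin at 10.8 CPM. TrissinR, the receptor of trissin, stood at 634.3 CPM in cell 6. Pdfr was found both with sNPF-R, at 725.9 CPM in cell 2, and without it, at 881.2 CPM in cell 5. These genes were named after their values were seen.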
